A study of Solanum lycopersicum with 10 samples.

Results

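The subject is a set of 62 cDNA clones, of 11153 measured, that were higher in leaves of wounded wild type tomato plants than in leaves of unwounded ones while the mean of the mutant stayed nearly level. The mutant plants were antisense for an Rboh gene. A clone entered the set when 3 conditions were met. Its mean log2 ratio was at least 1 higher in wild type systemic wounded leaves than in wild type control leaves. Both wild type wounded arrays lay above all 3 wild type control arrays. The mutant wounded mean minus the mutant control mean lay between -0.5 and 0.5. These measured values chose the clones, so the wounding changes below are a description and carry no test of their own.

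Leaf RNA was hybridised to 10 two-colour cDNA arrays, with the leaf sample in channel 2 and a pool of every sample of the series in channel 1. The 4 groups were mutant systemic wounded (3 arrays), mutant control (2 arrays), wild type systemic wounded (2 arrays) and wild type control (3 arrays). Control leaves came from plants that had not been wounded. The label systemic is read here as leaves of wounded plants other than the injured leaf. Below, "wounded leaves" means this systemic group. The tomato variety, the promoter of the antisense construct, the number of transgenic lines, plant age and the time after wounding are not stated in the sources used here, nor whether replicates came from separate plants, so p-values measure the spread between arrays, which may be technical.

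An Rboh protein, or respiratory burst oxidase homolog, is an NADPH oxidase of the plasma membrane that transfers electrons to oxygen outside the cell and so makes superoxide, which is converted to hydrogen peroxide. In tomato, injury to one leaf induces defence genes in distant leaves through systemin and jasmonate signalling, and hydrogen peroxide is known as a second messenger for part of that induction. Proteinase inhibitors, which slow the digestion of leaf protein by insects, are its classic products. Comparing wounding in wild type and antisense plants asks which transcripts respond in one genotype and not in the other.

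The files do not pair clone identifiers with genes. Of the 62 identifiers, 0 matched the RefSeq gene table, and the 8 gene lists drawn up for wound defence, jasmonate, the Rboh target, photosynthesis, trichomes, root, fruit and flower had 0 matches among them. The level of the antisense target and the markers of leaf cells were therefore not analysed here, no clone is given a function, and whether clones of the set represent the same transcript was not tested. All values are log2 ratios of the leaf sample to the pool, with each array's median at 0. Which way the ratio runs is unsettled, because the dyes are not named. Across clones, 2 of 45 pairs of arrays correlated below -0.3, at -0.33 and -0.43. Both pairs join wild type control replicate 3 with a mutant systemic wounded array. Turning every sign leaves these correlations unchanged, so they do not bear on the common direction. Whether a single array runs the other way was not tested. Directions are given for sample over pool. With every sign turned, the 62 clones fell in wounded wild type leaves, higher becomes lower in every statement below, and the rule would choose another 61 clones.

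Wounded wild type leaves carried 2.04-fold to 4.63-fold more of these transcripts than unwounded ones. The log2 change ran from 1.03 to 2.21 with a median of 1.26, beside a median of 0.00 over all clones. It was under 3-fold in 50 clones and at least 4-fold in 2. The median clone stood at 0.73 in wild type systemic wounded leaves and at -0.56 in wild type control leaves. The wounded mean lay above the array median in 58 of the 62 clones, and the control mean lay below it in 57. With limma's fit, 5 of the 62 had an adjusted p under 0.05 for wounding in wild type, beside 0.269% of all clones. That contrast chose the clones, so nothing is read from the count. Leaving out either wild type systemic wounded array, or wild type control replicate 1 or 2, brought it to 0. Leaving out mutant systemic wounded replicate 1 gave 1, and leaving out replicate 2 of that group gave 3.

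Clone cLET13L7 had the largest rise. Its values were 1.01 and 0.27 on the wild type systemic wounded arrays, against -1.55, -0.85 and -2.30 on the wild type control arrays. The log2 change was 2.21 (SE 0.44, limma adjusted p = 0.0683), or 4.63-fold. On the mutant systemic wounded arrays it read -0.56, 0.46 and 0.65, against -0.11 and -0.18 on the mutant control arrays. The mutant groups overlapped, and both mutant controls were above every wild type control. Clone cLEG4G7 came next, at 1.20 and 0.17 in wild type systemic wounded leaves, against -1.39, -0.71 and -1.89 in wild type control leaves, which is 2.02 higher on the log2 scale (SE 0.41, limma adjusted p = 0.0724). In the mutant it read -0.29, 0.49 and 0.73 after wounding, against -0.01 and -0.22 in controls. Both clones thus had 1 wounded wild type array well above the other, and their profiles over the 10 arrays were nearly the same (Pearson's r = 0.99, a description over arrays that the rule used).

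The most even clones of the set were chosen by the smallest spread within groups. Clone cLEC32A18 read 0.50 and 0.34 on the wild type systemic wounded arrays, against -0.62, -0.60 and -0.94 on the wild type control arrays. The log2 change was 1.15 (SE 0.24, limma adjusted p = 0.0842). Its mutant values were 0.12, -0.03 and 0.11 after wounding, against 0.01 and 0.37 in controls, all above the wild type controls. Clone cLEF49P6 read 0.31 and 0.47 in wounded wild type, against -0.69, -1.14 and -0.89 in controls, or 1.30 higher on the log2 scale (SE 0.24, limma adjusted p = 0.0513). Its mutant values were 0.19, 0.41 and 0.44 after wounding, against 0.11 and -0.06 in controls. In both clones the 5 mutant arrays lay nearer the wounded than the unwounded wild type arrays. That does not hold for evenly measured clones in general. Clones cLEC29D14 and cLEI13C7, whose spread within groups was nearly as small, had the mutant on the control side of the wild type midpoint. Of the 62 clones, 41 lay on the control side and 21 on the wounded side.

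**Figure D1:**
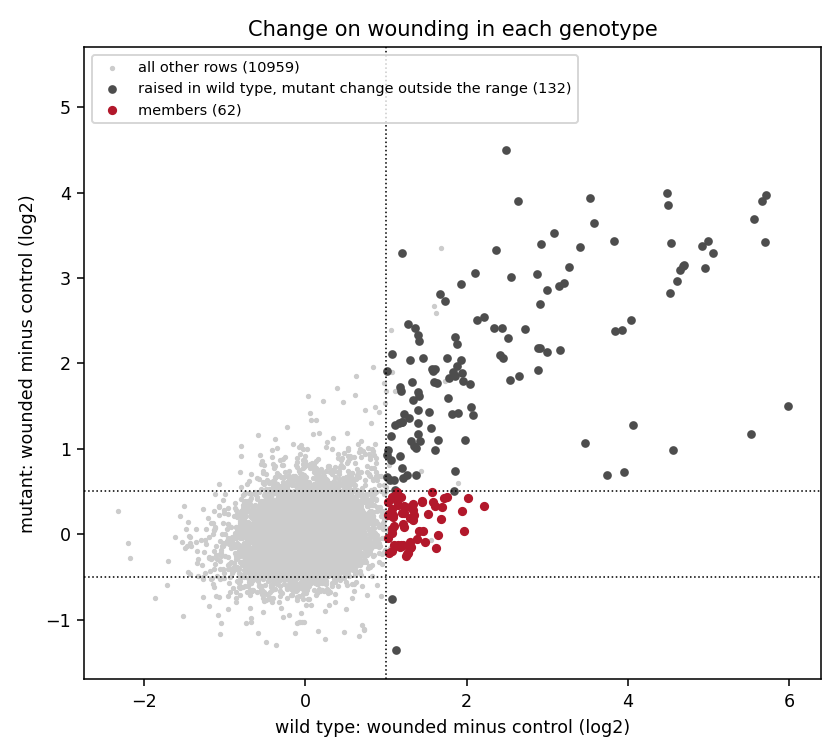
Change on wounding in wild type (x axis) and in the mutant (y axis), each as wounded mean minus control mean on the log2 scale, for 11153 clones. Red points are the 62 members, dark points the 132 other clones raised in wild type by the same criteria, and dotted lines mark the limits of the rule. The members lie at the lower left among the raised clones, with wild type changes up to 2.21, while the other raised clones reach 5.98. Of the dark points, 2 lie below the members, at mutant changes under -0.5.

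In the mutant, the wounded minus control change of the 62 clones ran from -0.26 to 0.50 with a median of 0.19, beside -0.01 over all clones. It was above 0 in 42 clones. In 9 clones every wounded mutant array lay above both mutant controls, and in 0 every wounded array lay below them, beside 7.55% and 7.66% of all clones. Limma called 0 of the 62 for wounding in the mutant, as it did 0% of all clones, and at an unadjusted p under 0.05 it gave 0 higher and 0 lower, beside 2.17% and 0.61%. The rule used this contrast, so nothing is read from these counts. A mean inside this range does not show that wounding had no effect in the mutant. Limma's 95% interval of the change, which is not corrected for how the clones were chosen, extended a median of 0.73 to either side. Its upper end reached 1 in 25 of the 62 clones, and reached the clone's own wild type change in 6. For cLET13L7 it ran from -0.62 to 1.29, and for cLEG4G7 from -0.47 to 1.31.

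The rule sets the difference between the genotypes' responses, so that difference is a description. Mutant change minus wild type change had a median of -1.22 and ran from -1.92 to -0.64, with a median SE of 0.47. By limma, 0 of the 62 clones passed for this interaction, as did 0% of all 11153 clones, and 40 were lower at an unadjusted p under 0.05, beside 1.37% of all clones. The smallest adjusted p was 1.

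The set is 1 slice of the clones raised in wild type. By the same wild type criteria 194 clones were raised (1.74% of all), and in 130 of them the mutant change was above 0.5, in 2 below -0.5 and in 62 between. The nearest wild type change outside the limit of 1 was 0.99, against 1.03 for the nearest inside, and 25 clones that met the other conditions had a change from 0.9 to under 1. At the upper limit in the mutant, the nearest values were 0.50 inside and 0.51 outside. Inside it, 7 members had a mutant change over 0.4, and outside it 2 raised clones lay over 0.5 and up to 0.6. At the lower limit they were -0.26 inside and -0.76 outside. The smallest gap between the lower wounded and the highest control array was 0.03 inside the set, and -0.07 outside it. Exchanging the genotypes in the rule, a comparison chosen after the data had been seen, gave 16 clones raised in the mutant with a wild type change between -0.5 and 0.5. Its order condition there sets 3 wounded arrays against 2 controls. For falls in place of rises, the rule gave 61 clones in wild type alone, and 11 with the genotypes exchanged.

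The number of clones chosen depended on single arrays. Dropping wild type systemic wounded replicate 1 gave 133 clones and dropping replicate 2 gave 99. Dropping wild type control replicate 1 gave 111, and dropping replicate 2 gave 94. With fewer arrays, the condition on their order is easier to meet. Of the 62 clones, 57 and 48 were chosen again when a wounded wild type array was dropped, and 60 and 49 when one of these controls was. Without wild type control replicate 3 the rule chose 63 clones, 44 of them among the 62.

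An array that the rule did not use gives a view of its level against the mutant apart from the choice. Each wild type array was left out in turn, the rule was applied to the remaining 9, and the left-out array was then set against the mean of the 5 mutant arrays, whose level the rule does not use. Wild type systemic wounded replicate 1 lay above the mutant mean in 84 of the 133 clones chosen without it (63.2%, beside 50.9% of all clones), with a median difference of 0.28, against 0.83 for the wounded array that the rule had used. Wild type systemic wounded replicate 2 lay above it in 71 of 99 clones (71.7%, beside 50.6%), with a median of 0.39 against 0.88. Most clones lay above the mutant mean on the unused array, with a median less than 0.5 of that on the array that chose them. The comparison is between genotypes, so it does not show whether the wounding change recurred.

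The unwounded arrays behaved alike. Wild type control replicate 1 lay below the mutant mean in 71 of 111 clones (64.0%, beside 49.8% of all clones), with a median of -0.18 against -0.77 for the controls used. Wild type control replicate 2 lay below it in 66 of 94 clones (70.2%, beside 49.1%), with a median of -0.23 against -0.79. For wild type control replicate 3 the count was 37 of 63 (58.7%, beside 50.4%), with a median of -0.10 against -0.31. These are descriptions, since clones are not independent replicates.

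**Figure D2:**
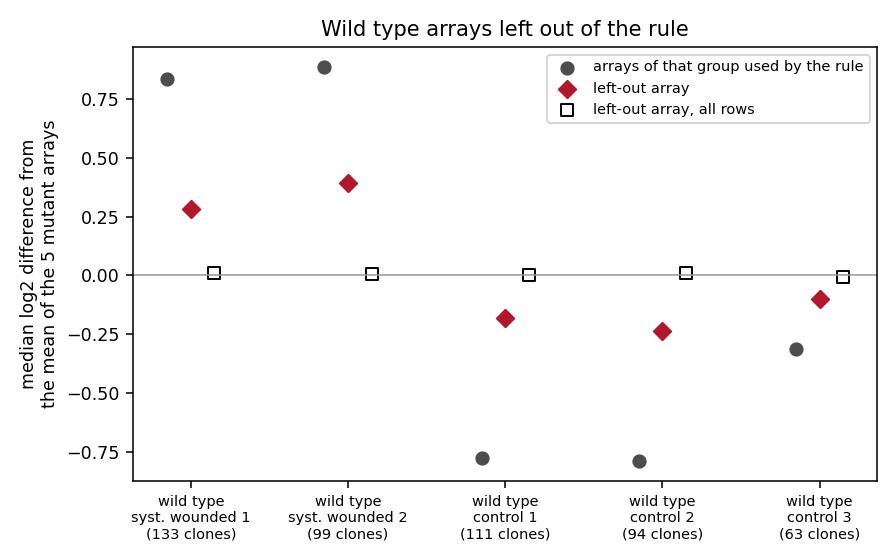
Median log2 difference between wild type arrays and the mean of the 5 mutant arrays, over the clones that the rule chose without the array named on the x axis (number of clones in brackets). Dark circles are the arrays of that group which the rule used, red diamonds the left-out array and open squares the left-out array over all 11153 clones. Each diamond lies between its circle and 0, for example at 0.28 against 0.83 for wild type systemic wounded replicate 1.

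Where the mutant stood relative to wild type was not fixed by the rule. The contrast used is the mutant mean over both treatments minus the wild type mean over both treatments, which places the mutant against the midpoint between wounded and unwounded wild type. The rule uses differences within each genotype. With 2 wounded and 3 control arrays in wild type, this contrast keeps a part of the wild type difference that chose the clones. The mean of all 5 mutant arrays minus the mean of all 5 wild type arrays is free of the choice if the arrays have equal spread, though it weights the treatments unequally between the genotypes. That condition may not hold, since wild type control replicate 3 had an SD of 0.64 over all clones, against 0.36 to 0.54 on the other arrays. The median of this difference between 5-array means was -0.12 over the 62 clones, beside -0.00 over all clones, with 35 clones below 0 and 27 above. With equal weights for the treatments the median was -0.28, beside -0.01 over all clones. The mutant then lay on the control side of the midpoint in 41 clones and on the wounded side in 21. In 19 of the 41, the mutant mean was below the wild type control mean as well, and in 3 of the 21 it was above the wild type wounded mean. All 5 mutant arrays lay below both wild type wounded arrays in 41 clones, beside 11.9% of all clones. They lay above all 3 wild type controls in 15, beside 7.93%. The rule had set the wild type arrays apart, which favours both counts.

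By limma, the mutant differed from the wild type midpoint in 14 of the 62 clones, 13 lower and 1 higher. Of all clones, 1.4% were called lower and 3.08% higher. At an unadjusted p under 0.05 the counts were 23 lower and 5 higher, beside 10.2% and 12.3% of all clones. The 5 mutant arrays did not overlap with the 5 wild type arrays in 2 clones on the lower side and in 1 on the higher side, beside 3.53% and 5.1% of all clones. With the mean of the 5 arrays of each genotype in place of equal weights for the treatments, 10 were lower and 3 higher, beside 1.61% and 3.54%. The count of 14 was 2 when wild type systemic wounded replicate 1 was left out and 5 for replicate 2. It was 6 when mutant control replicate 2 was left out and 9 for replicate 3. Each such fit leaves 1 array in the group concerned.

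**Figure D3:**
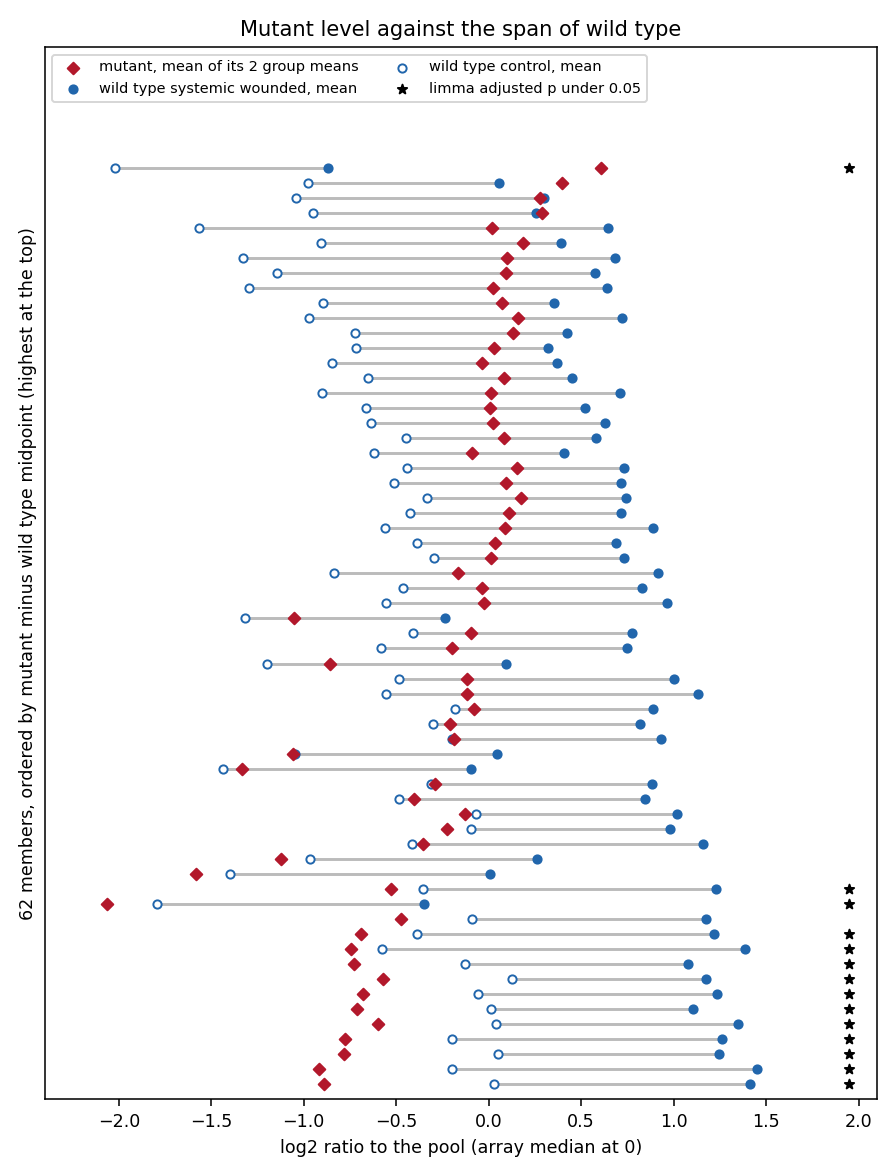
Group means of the 62 members on the log2 scale, ordered by the difference between the mutant and the wild type midpoint. Filled blue circles are wild type systemic wounded means, open circles wild type control means, red diamonds the mean of the 2 mutant group means, and stars mark the 14 clones with a limma adjusted p under 0.05. In the lowest clones the diamond lies left of both circles, and in the top clone it lies right of both.

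In all 13 clones called lower, the mutant mean lay below the wild type control mean as well as the wounded mean, and all 5 mutant arrays lay below both wild type wounded arrays. Their difference from the midpoint ran from -1.61 to -0.97, with a median of -1.27. Their median on the mutant systemic wounded arrays was -0.87, -0.87 and -0.54, against -0.91 and -0.64 on the mutant control arrays. On the wild type systemic wounded arrays it was 1.22 and 1.28, against -0.28, -0.59 and 0.46 on the wild type control arrays. The unwounded wild type arrays thus lay between the mutant arrays and the wounded wild type arrays. The rule and the call together chose these clones for that order, so it is a description and supports nothing.

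Clone cLED7J4 showed the largest difference among the clones called lower whose genotypes did not overlap. It read -1.07, -0.91 and -0.59 on the mutant systemic wounded arrays and -0.71 and -0.72 on the mutant control arrays, against 1.07 and 1.42 on the wild type systemic wounded arrays and -0.03, -0.59 and 0.78 on the wild type control arrays. The difference from the midpoint was -1.43 (SE 0.25, limma adjusted p = 0.0080). Every mutant array lay below every wild type array, though the highest mutant and the lowest wild type value both round to -0.59. Clone cTOF18F16 read -0.99, -0.63 and -0.75 in wounded and -0.75 and -0.58 in unwounded mutant leaves, against 1.32 and 0.83 in wounded and -0.22, -0.42 and 0.26 in unwounded wild type leaves. Its difference was -1.20 (SE 0.20, limma adjusted p = 0.0060). The call of cTOF18F16 was lost without wild type systemic wounded replicate 1 (limma adjusted p = 0.0513), and that of cLED7J4 kept a limma adjusted p between 0.0023 and 0.0454 over its 20 alternatives.

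Wild type control replicate 3 moved with this subset. It read above the array median in 11 of the 13 clones called lower, and was the highest of the 3 controls in 11. In the other 49 members it was above the array median in 2, with a median of -0.94. This array also had the widest spread over all clones, with an SD of 0.64 against 0.36 to 0.54 on the other arrays. With this array left out of the means, 11 of the 13 clones still had a mutant mean below the wild type control mean. The fit without this array called 12 members, 11 lower and 1 higher. Whether those 11 were all among the 13 was not tested. The members and the 13 calls had been chosen with this array included, so these counts do not measure its part in the pattern. Applied without this array, the rule chose only 44 of the members again.

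**Figure D4:**
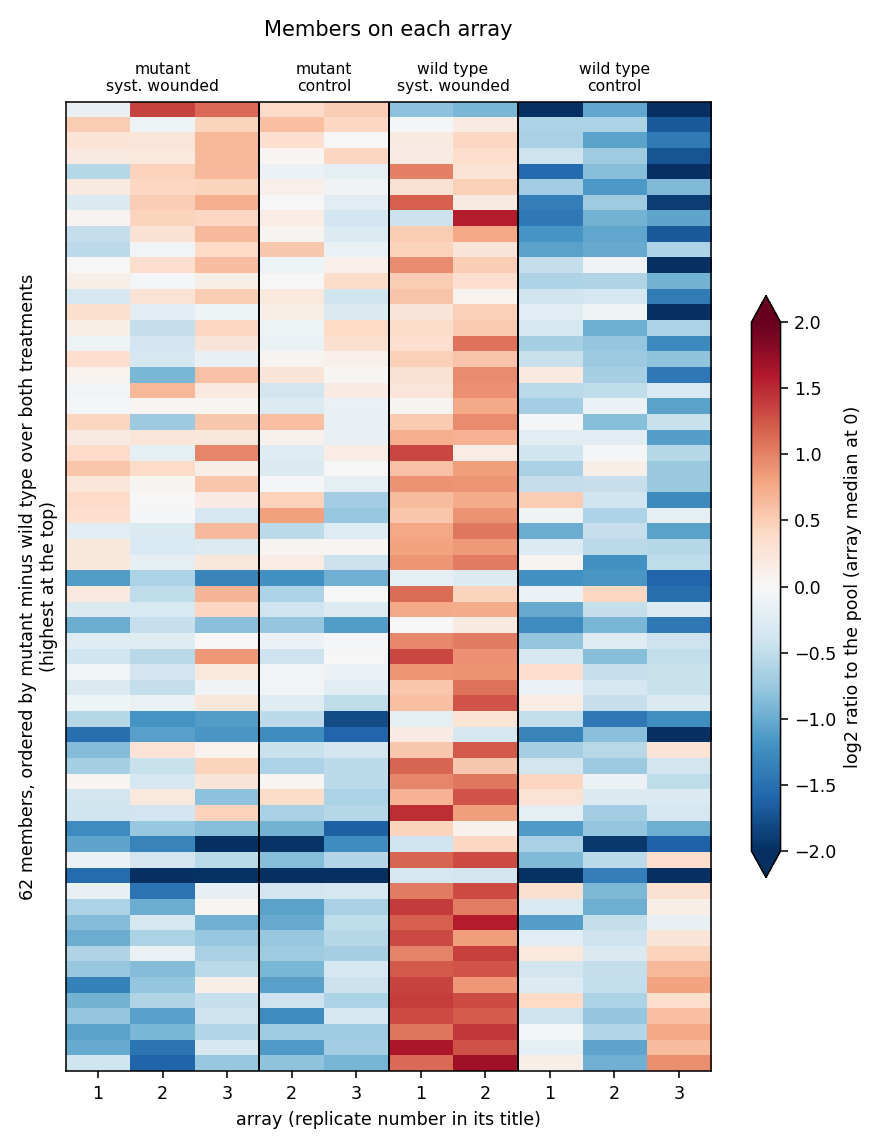
Log2 ratio to the pool of each of the 62 members (rows) on each of the 10 arrays (columns, by group and replicate number), with red above and blue below the array median and colours limited at -2 and 2. Rows run from the highest to the lowest difference between mutant and wild type over both treatments. In the lowest rows the mutant arrays are blue, and wild type control replicate 3 changes from blue at the top to red at the bottom.

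The single clone called higher was cLED6M13. It read -0.15, 1.35 and 1.14 on the mutant systemic wounded arrays and 0.38 and 0.49 on the mutant control arrays, against -0.82 and -0.91 on the wild type systemic wounded arrays and -2.03, -1.04 and -2.99 on the wild type control arrays. Every mutant array was above every wild type array. The mutant exceeded the wild type midpoint by 2.05 (SE 0.36, limma adjusted p = 0.0094). Its rise on wounding in wild type, 1.15 (SE 0.51), took place below the level of the unwounded mutant. The call was lost without wild type systemic wounded replicate 1 (limma adjusted p = 0.0518), with the difference then at 2.07.

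In unwounded leaves, 0 of the 62 clones were called between mutant and wild type by limma, beside 0.493% of all clones, and 14 were higher and 2 lower at an unadjusted p under 0.05, beside 7.88% and 5.22%. The groups did not overlap in 18 clones that were higher and 3 that were lower, beside 15.1% and 14.1%. The wild type controls had been chosen to lie low, so nothing is read from these counts. The median difference was 0.28, mutant minus wild type, beside -0.01 over all clones, and 39 clones were above 0. The count of calls was 1 when either mutant systemic wounded replicate 1 or wild type control replicate 2 was left out. The largest differences were those of cLED6M13, 2.46 (SE 0.51, limma adjusted p = 0.0656), and of cLET11N14, 1.48 (SE 0.34, limma adjusted p = 0.0941). Clone cLET11N14 read 0.59 and 0.41 in mutant control leaves, against -0.63, -0.63 and -1.67 in wild type control leaves. Its wounded wild type arrays, at -0.05 and 0.16, were also below both mutant controls. In the other direction stood cLET13C11, at -0.89 (SE 0.48, limma adjusted p = 0.443), and cLEC37L20, at -0.81 (SE 0.29, limma adjusted p = 0.25). Clone cLEC37L20 read -0.71 and -0.66 in mutant control leaves, against 0.21, -0.29 and 0.46 in wild type control leaves, and these groups did not overlap. The values of cLET13C11 were -0.81 and -0.92 in the mutant, against 0.12, -0.96 and 0.93 in wild type, and these did.

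In wounded leaves, 9 of the 62 clones were lower in the mutant by limma and 0 were higher, beside 0.251% and 0.421% of all clones. At an unadjusted p under 0.05 the counts were 37 lower and 1 higher, beside 5.77% and 7.18%. The wounded wild type arrays had been chosen to lie high, so these counts too are only descriptions. The median difference was -0.86, beside 0.00 over all clones, and the groups did not overlap in 43 clones that were lower and 1 that was higher, beside 17.1% and 16.7% of all clones. The count of 9 became 0 when either wild type systemic wounded array was left out, 0 for mutant systemic wounded replicate 1 or 3, and 3 for replicate 2 of that group. Clone cLET11O16 was lowest, at -1.01, -1.46 and -0.31 in mutant systemic wounded leaves, against 1.62 and 1.28 in wild type systemic wounded leaves. The difference was -2.38 (SE 0.44, limma adjusted p = 0.0323). Clone cTOB5J18 read -0.87, -0.35 and -0.96, against 1.20 and 1.57, a difference of -2.11 (SE 0.32, limma adjusted p = 0.0186).

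In unwounded leaves, the difference of cTOB5J18 between the genotypes was smaller than its SE. Its values were -1.01 and -0.51 in mutant control leaves, against -1.10, -0.47 and -0.16 in wild type control leaves, a difference of -0.19 (SE 0.32, limma adjusted p = 0.838). On a scale where wild type control is 0% and wild type systemic wounded 100%, its mutant mean stood at -8.55%, while the other 12 clones called lower stood between -70.1% and -11.0%.

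**Figure D5:**
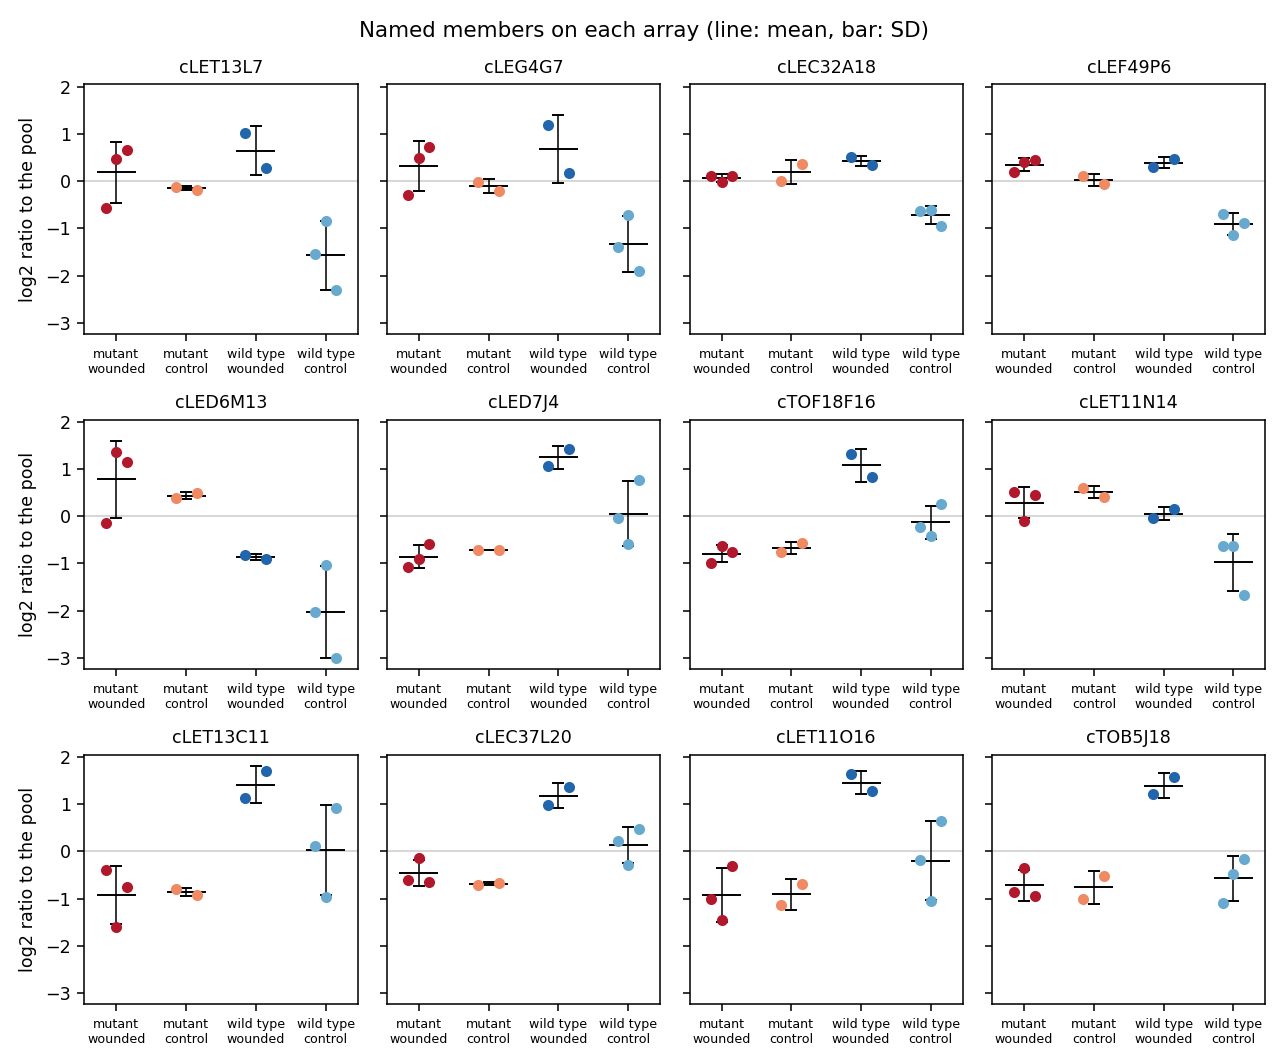
Log2 ratio to the pool on each array for the 12 named members, by group. Points are arrays, lines are means and bars are SD (n = 3, 2, 2 and 3 arrays from left to right). cLED7J4, cTOF18F16, cLET13C11, cLEC37L20, cLET11O16 and cTOB5J18 are low in both mutant groups and highest in wounded wild type, while cLEC32A18, cLEF49P6, cLET13L7 and cLEG4G7 have their lowest mean in unwounded wild type.

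The 62 clones did not share 1 profile. Across the 10 arrays the median Pearson correlation of their 1891 pairs was 0.59, with a range from -0.67 to 0.99, and 69 pairs exceeded 0.9. All pairs share the arrays and the pattern asked for by the rule, so these values only describe. The spread within groups, as the residual SD of the fit, had a median of 0.40 in the set and of 0.33 over all clones.

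The clone identifiers begin with a library code, followed by what reads as a plate number and a well. Code cLEC made up 22 of the 62 clones (35.5%), beside 19.8% of all clones. Among the 130 raised clones with a mutant change above 0.5 it made up 12.3%. Code cLED made up 9 (14.5%), beside 22.5% of all clones and 52.3% of those 130. Code cLET made up 7 (11.3%), beside 8.72% and 16.2%. No test was made of these shares, since clones that share a transcript are not independent. The set was spread over 44 combinations of code and first number, 10 of which held more than 1 member and 28 members in all. The most on any was 5 of 242 clones, for cLEC6. Both rows of the table that carry a gene name, Carbonic_anhydrase and Chlorophyla/bbindingprotein, were outside the set, with wild type changes of -0.16 and -0.85.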

How the data were processed

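Per the labels, each array compared leaf total RNA in channel 2 with a pool of all samples in channel 1. The deposited values are log2 ratios, as their form shows: per array, 99.7% to 100% of them turn into a ratio with 3 decimals when taken as powers of 2 (tolerance 0.02 thousandths). How the authors scaled the arrays or corrected background is not given in the sources used here. Array medians lay between -0.01 and 0.07. Of 11347 rows, 193 marked as failed and 1 blank were left out. Signal over background was not analysed here. The number of arrays limits the precision.

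Each array was centred on its median over 11153 rows. The rule was applied to group means. All 10 arrays entered a single model of 4 group means in limma 3.58.1 (lmFit, eBayes; R 4.3.3), two-sided, with Benjamini-Hochberg adjustment over all rows for each of 7 contrasts. Residual degrees of freedom were 6 and prior ones 6.45. "Called" means an adjusted p under 0.05. The fit was tested on simulated data for genotype over both treatments only. That simulation used independent normal noise, equal in spread on every array, and did not choose clones by the rule. Plots used matplotlib 3.10.9.

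The members, lists and tests were chosen with earlier results of these data known. Up to 2 clones in each direction were named per comparison: those of largest change, taken first from called clones whose arrays did not overlap, then from called clones, then from all members, and the 2 of smallest residual SD. The alternatives were no centring, quantile and scale normalization, failed rows kept, clones at an array's commonest ratio left out, array weights, trend and robust eBayes, replicate blocks, the compared groups alone, other thresholds, and each array left out. Filters on missing values did not apply, as 0 values were missing.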

Additional observations from a re-analysis of the deposited data

Results flagged for a closer look

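Of the 193 rows marked as failed quality control, which were outside all comparisons, 2 met the rule when these rows were kept. That is 1.04% of them, beside 0.556% of the tested clones.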

How the results depend on the processing

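The rule gave 14 clones at a minimum wild type change of 1.5 and 39 with the mutant held between -0.25 and 0.25. Its other settings gave 53 to 81 clones, and leaving out 1 array gave 51 to 133. For genotype over both treatments, the other settings called 12 to 19 members, and leaving out 1 array gave 2 to 16. Of the 13 members called lower, 2 kept the call in all 19 other fits with equal treatment weights. In unwounded leaves, where 0 members were called, scale normalization called 2, the limit of 0.1 for the adjusted p called 2, and fits that lacked 1 array called 0 to 1. In wounded leaves, the 9 calls became 16 by quantile normalization, 18 by array weights and 15 at the limit of 0.1, and 0 to 13 where 1 array was missing. For wounding in wild type, the 5 calls became 17 by array weights, 9 by quantile normalization, 1 by scale normalization, 2 by trend and robust eBayes, 1 where only the compared groups were fitted, 16 at the limit of 0.1, and 0 to 5 where 1 array was missing. For wounding in the mutant, 0 members were called under every alternative run. The cause of these shifts was not tested. A left-out array also leaves fewer arrays. No named difference changed sign.

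Arrays of the same number share only a number: the correlations of their deviations from group means ran from -0.35 to 0.34 by title number and from -0.35 to 0.39 by description number. With a replicate block by title number, 12 members were called for genotype over both treatments, and with a block by description number 14. For wounding in wild type the block gave 5 and 10, and it moved no other count by over 1.5 times.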
